A study of Mus musculus with 6 samples.

Results

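S100 calcium-binding proteins of the murine lung cancer cell line 889 were followed through the transcriptome comparison of kiaa1522. The 9 genes described were S100a1, S100a3, S100a4, S100a6, S100a10, S100a11, S100a13, S100a14 and S100a16, taken as every row of the count data whose gene name equals one of these symbols. They are 9 of 34745 genes in the data and 9 of the 10046 genes that held over 500 counts in total and were tested.

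S100 proteins are small proteins with paired EF-hand motifs, the helix-loop-helix fold that holds a calcium ion. They usually act as dimers that bind and alter target proteins when calcium rises, among them annexins, cytoskeletal proteins and, outside the cell, surface receptors such as the receptor for advanced glycation end products. Many of their genes lie side by side on the same chromosome, and several are known for expression in tumor cells, where S100a4 is also called metastasin.

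Total RNA was sequenced from 889 cells (also 889-DTC, C57BL/6 strain, lung), all of which expressed Cas9 with a single guide RNA. The 3 libraries labelled sg-con came from cells with a control sgRNA (treatment label control) and the 3 labelled sg-kiaa1522 from cells with a kiaa1522 sgRNA (treatment label KIAA1522-downregulated). In the study's methods the sgRNAs were delivered by lentiCRISPRv2 lentivirus, with an EGFP sgRNA plasmid as the control. Either puromycin or sorting served to pick out the cells that carried the virus. Neither the sgRNA of the sequenced cells nor whether they were a clone is stated, and nothing says that the replicates were separate cultures, so p-values measure the spread between these libraries, which may be technical.

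The libraries held between 12220001 and 18609376 counts, and the smallest was sg-kiaa1522 replicate 1. The mRNA of kiaa1522 itself, annotated as C77080, was 127 ± 2.93 CPM (counts scaled to TMM-normalized library size, mean ± SD, n = 3) in sg-con and 210 ± 6.38 CPM in sg-kiaa1522 (log2 fold change 0.73, adjusted p = 9.1e-05). Cas9 cuts change the sequence of a gene and need not lower its mRNA, so the higher level goes against the label KIAA1522-downregulated for the mRNA only, and protein was not measured in these data. Every direction below is that of the libraries labelled sg-kiaa1522. Within sg-con, replicate 1 stood furthest from the other libraries of its group. Epithelial Krt8, Krt18 and Krt19 were detected in every library, whereas Epcam and Cldn3 had 0 counts in all 6 libraries, and the lung lineage factor Nkx2-1 ranged from 132 to 1096 counts with overlapping groups.

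Of the 9 S100 genes, 8 were lower in the libraries labelled sg-kiaa1522 at an adjusted p of at most 0.05 (edgeR's quasi-likelihood test, Benjamini-Hochberg adjustment over all tested genes), where 26.3% of all tested genes were. With the added limit of a 2-fold change, 4 were lower (S100a4, S100a1, S100a13 and S100a16), against 4.34% of all tested genes. By the same edgeR test 0 of the 9 were higher past that limit or at an adjusted p of at most 0.05, and DESeq2's Wald test also called 0 higher, while 2.74% of all tested genes were higher past the limit. At an unadjusted p under 0.05 the same 8 genes were lower and 0 were higher, against 29.5% and 29.1% of all tested genes. The median log2 fold change was -0.94 over the 9 genes and -0.0067 over all tested genes. In those 8 genes each sg-kiaa1522 library lay below each sg-con library, as was true of 31.1% of all tested genes. In bulk RNA, fewer cells of a kind and less RNA per cell cannot be told apart.

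**Figure D1:**
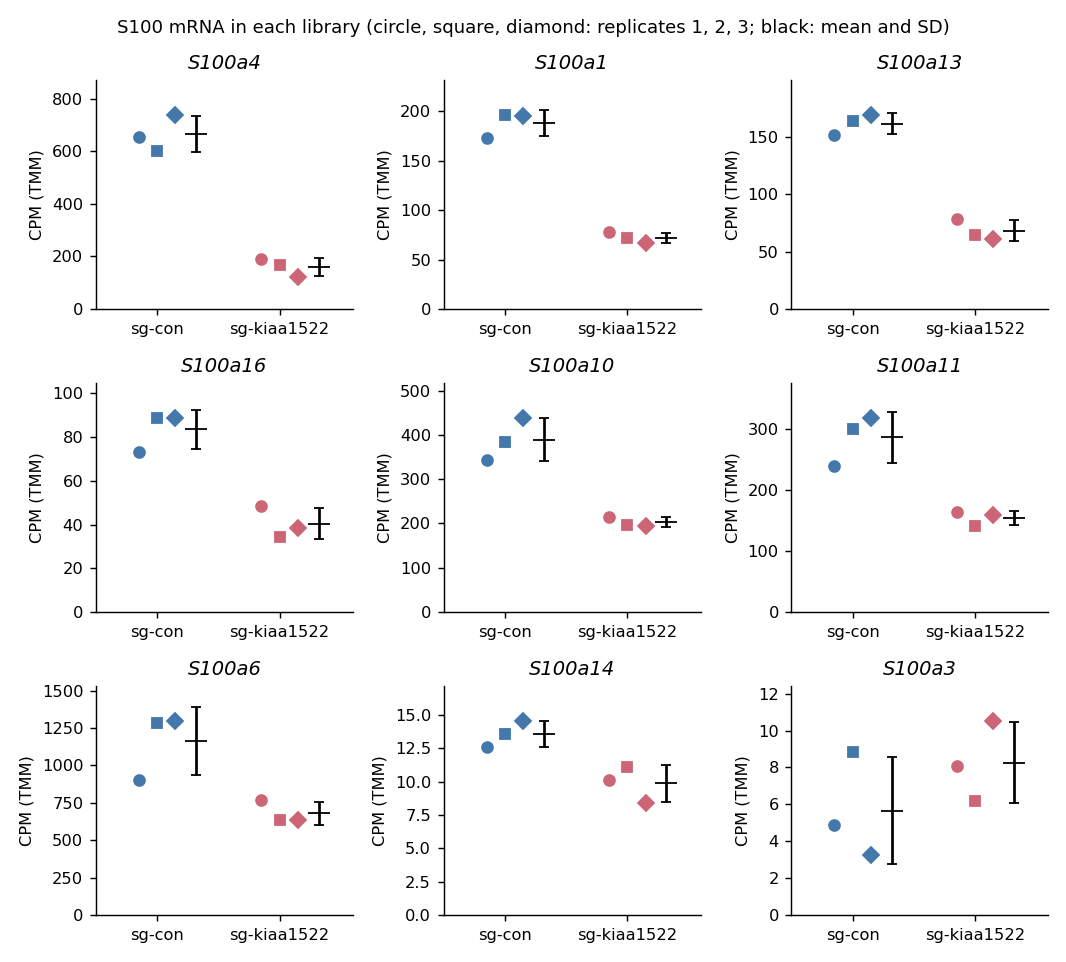
TMM-normalized CPM (vertical axis from 0) of the 9 S100 genes in each library of sg-con (blue) and sg-kiaa1522 (red); circles, squares and diamonds are replicates 1, 2 and 3, and black bars are the mean and SD. In 8 panels all 3 sg-kiaa1522 libraries lie below all 3 sg-con libraries, and in the panel of S100a3 the groups overlap.

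S100a4 (ENSMUSG00000001020), a regulator of cell motility that binds non-muscle myosin heavy chain, had the largest change. It was 655, 601 and 738 CPM in sg-con replicates 1, 2 and 3 and 189, 166 and 122 CPM in sg-kiaa1522 replicates 1, 2 and 3. The lowest sg-con library was thus well above the highest sg-kiaa1522 library. The means of 665 ± 69.4 and 159 ± 33.9 CPM (SD, n = 3) differed by a log2 fold change of -2.06 (SE 0.161, adjusted p = 8.9e-05), a level 76.1% lower. Leaving out each library in turn gave log2 fold changes from -2.20 to -1.91. The overlapping gene model Gm42674 shares 51.7% of the exon length of S100a4 on the same strand, and it held only 8 to 27 counts a library beside 2072 to 12309 for S100a4.

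The upstream region of S100a4 is shown because this gene fell most and lies beside S100a3, which did not pass the test. The RefSeq window chr3:90603520-90603819 (GRCm38.p6, plus strand, 250 bases before to 50 after the start) follows, with capitals marking the match to TATAAA, which begins 31 bases before the start.
S100a4: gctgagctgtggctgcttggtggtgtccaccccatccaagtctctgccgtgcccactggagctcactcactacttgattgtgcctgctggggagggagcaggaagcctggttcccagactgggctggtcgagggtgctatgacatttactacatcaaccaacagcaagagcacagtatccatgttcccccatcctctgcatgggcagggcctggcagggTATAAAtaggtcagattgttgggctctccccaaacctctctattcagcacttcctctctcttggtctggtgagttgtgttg
Either strand of the windows was searched for TATAAA, for the GC box GGGCGG, for the AP-1 letters TGANTCA, for the E-box CANNTG and for the NFκB motif. Of 32851 windows of this length, 13.6% hold TATAAA, 35.7% the GC box, 7.81% TGANTCA, 72.3% CANNTG and 8.46% the NFκB motif. TATAAA does not set S100a4 apart from S100a3, since 1 of the 4 windows of S100a3 holds it too, from 52 bases before the start. The S100a4 window holds none of the other 4 motifs, and the NFκB motif was matched in none of the 11 windows of the 7 S100 genes with an entry.

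S100a1 (ENSMUSG00000044080), best known in cardiac muscle where it acts on calcium release and uptake, was 173, 196 and 195 CPM in sg-con and 77.4, 72.1 and 67.2 CPM in sg-kiaa1522. The 3 libraries of each group lay close together and far from the other group. The log2 fold change was -1.38 (SE 0.0818, adjusted p = 3.3e-05), with a range of -1.45 to -1.33 when 1 library was left out. S100a13 (ENSMUSG00000042312), which takes part in the export of Fgf1 and interleukin 1 alpha by a route without a signal peptide, was 152, 164 and 169 CPM in sg-con and 78.8, 64.9 and 61.4 CPM in sg-kiaa1522. The groups were again apart, at means of 162 ± 8.92 and 68.4 ± 9.24 CPM (SD, n = 3). S100a13 thus had a log2 fold change of -1.24 (SE 0.103, adjusted p = 0.00011), between -1.35 and -1.17 with 1 library left out.

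S100a1 and S100a13 are read in opposite directions from starts only 43 bases apart in GENCODE and 105 bases apart in RefSeq. Their RefSeq windows share 204 bases, so one window is shown for both, chr3:90514185-90514484 (GRCm38.p6, plus strand), with capitals marking the stretch between the RefSeq starts.
S100a13: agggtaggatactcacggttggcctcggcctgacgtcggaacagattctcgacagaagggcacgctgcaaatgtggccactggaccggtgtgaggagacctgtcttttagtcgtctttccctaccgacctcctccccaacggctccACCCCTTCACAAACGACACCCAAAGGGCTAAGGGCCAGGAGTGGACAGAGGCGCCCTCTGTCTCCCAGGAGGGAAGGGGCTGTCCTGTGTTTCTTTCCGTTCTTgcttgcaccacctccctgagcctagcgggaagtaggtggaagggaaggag
Neither this window nor that of S100a1 holds TATAAA, the GC box, the AP-1 letters or the NFκB motif on either strand. The E-box CANNTG was matched 1 time in the S100a13 window and 0 times in that of S100a1. The log2 ratio of S100a1 to S100a13, both in CPM, was 0.19, 0.26 and 0.21 in sg-con and -0.03, 0.15 and 0.13 in sg-kiaa1522. The ratio was thus slightly lower in sg-kiaa1522, without overlap, by 0.13 on average (log2 difference -0.13, exact two-sided permutation p = 0.1, the smallest that 3 against 3 libraries allow).

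S100a16 (ENSMUSG00000074457), an EF-hand protein with a single working calcium site, was 73.1, 88.9 and 88.6 CPM in sg-con and 48.4, 34.3 and 38.6 CPM in sg-kiaa1522. The groups did not overlap, and sg-con replicate 1 and sg-kiaa1522 replicate 1 were nearest to each other. S100a16 had a log2 fold change of -1.05 (SE 0.142, adjusted p = 0.00081), close to the 2-fold limit. It fell short of that limit without sg-kiaa1522 replicate 2 (-0.94), while its adjusted p stayed at or below 0.005 in all 6 fits with 1 library left out. S100a14 (ENSMUSG00000042306), found mainly in epithelia, was 12.6, 13.5 and 14.6 CPM in sg-con and 10.1, 11.1 and 8.36 CPM in sg-kiaa1522. These values rest on 123 to 251 counts a library and did not overlap between groups. With a log2 fold change of -0.46 (SE 0.136) the adjusted p was 0.024, which rose to as much as 0.079 with 1 library left out. The call was lost without sg-con replicate 2, sg-con replicate 3, sg-kiaa1522 replicate 1 or sg-kiaa1522 replicate 3 (log2 fold changes from -0.35 to -0.47).

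S100a10 (ENSMUSG00000041959), or p11, differs from its relatives in that it does not bind calcium, and it forms a heterotetramer with annexin A2 at the plasma membrane. It was 342, 385 and 439 CPM in sg-con and 215, 196 and 195 CPM in sg-kiaa1522, with the groups apart. The log2 fold change was -0.94 (SE 0.0976, adjusted p = 0.00025). S100a11 (ENSMUSG00000027907), a partner of annexin A1, was 240, 301 and 319 CPM in sg-con and 164, 142 and 159 CPM in sg-kiaa1522. The lowest sg-con library, replicate 1, was still above every sg-kiaa1522 library. The log2 fold change was -0.89 (SE 0.115, adjusted p = 0.00065). Without sg-con replicate 1 both genes passed the 2-fold limit as well (log2 fold changes -1.03 and -1.01), which made 6 S100 genes past it. The log2 ratio of S100a10 to S100a11 was 0.44 ± 0.0820 in sg-con and 0.39 ± 0.0854 in sg-kiaa1522 (SD, n = 3). Here the libraries of both groups overlapped (p = 0.5 by the exact permutation test).

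The S100a11 window is shown for contrast with the windows of S100a4, S100a1 and S100a13, since it holds 3 matches to GGGCGG and 2 to TGANTCA. It is chr3:93520246-93520545 (GRCm38.p6, plus strand), and capitals mark those 5 matches, all of which end before the start.
S100a11: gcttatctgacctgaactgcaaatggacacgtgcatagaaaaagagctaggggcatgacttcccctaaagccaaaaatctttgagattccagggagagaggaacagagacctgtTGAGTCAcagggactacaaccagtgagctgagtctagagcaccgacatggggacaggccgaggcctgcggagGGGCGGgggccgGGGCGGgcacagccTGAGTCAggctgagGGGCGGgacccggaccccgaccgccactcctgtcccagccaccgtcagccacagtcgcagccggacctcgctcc
The window also holds 2 matches to the E-box CANNTG, which are not marked, and neither TATAAA nor the NFκB motif. Of the 2 windows of S100a16, which also passed the 2-fold limit, 1 holds a match to GGGCGG and to TGANTCA as well. A match describes the letters of the window only.

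S100a6 (ENSMUSG00000001025), or calcyclin, which binds the calcyclin-binding protein Cacybp and annexin A11, was 901, 1283 and 1299.8 CPM in sg-con and 769, 635 and 632 CPM in sg-kiaa1522. The groups did not overlap, but sg-con replicate 1 lay closer to sg-kiaa1522 replicate 1 than to the other libraries of its own group. The log2 fold change was -0.77 (SE 0.150, adjusted p = 0.0039), from -0.94 to -0.69 with 1 library left out. Across the 9 genes, sg-con replicate 1 was the lowest library of its group for 7 genes, and sg-kiaa1522 replicate 1 was the highest of its group for 7.

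S100a3 (ENSMUSG00000001021), a zinc-binding member known from the hair cuticle, was 4.88, 8.85 and 3.24 CPM in sg-con and 8.07, 6.16 and 10.5 CPM in sg-kiaa1522, from 54 to 179 counts a library. The groups overlapped, and the log2 fold change of 0.54 (SE 0.361) did not pass the test (adjusted p = 0.24, exact two-sided permutation p = 0.3). Without sg-con replicate 2, its highest sg-con library, the log2 fold change was 1.02 (adjusted p = 0.031), so its call depended on that library. It was 0.26 without sg-con replicate 3 and 0.32 without sg-kiaa1522 replicate 3, neither of which passed.

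**Figure D2:**
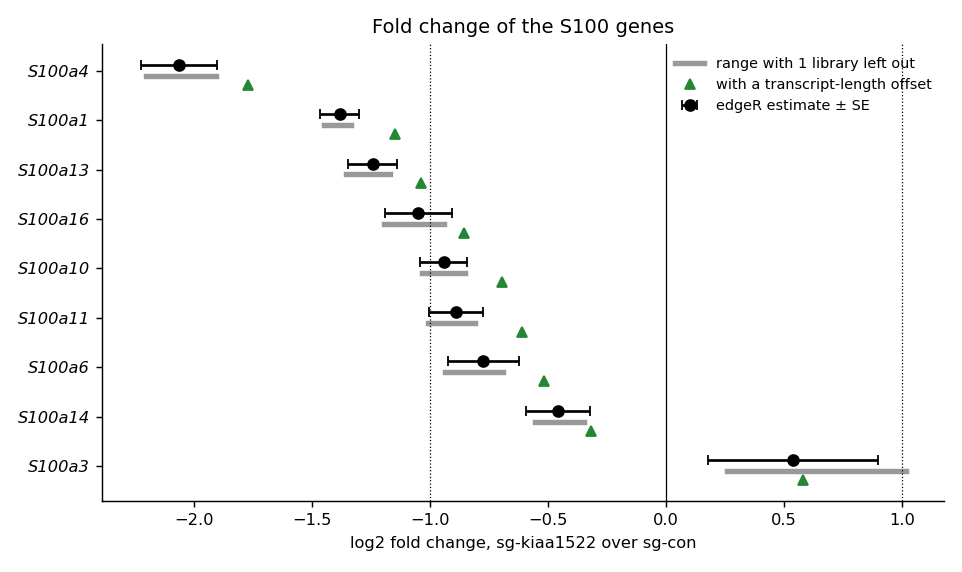
Log2 fold changes of sg-kiaa1522 over sg-con for the 9 S100 genes: black points with bars are the edgeR estimate ± SE, grey bars the range over the 6 fits that leave out 1 library, and green triangles the estimate with a transcript-length offset; dotted lines mark the 2-fold limit. S100a4 stands lowest at -2.06, all estimates of 8 genes lie below 0, and those of S100a3 lie above 0.

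Most of the 9 genes have short transcripts, and short genes as a class tended to be lower in sg-kiaa1522. Tested genes were split by mean transcript length into 4 equal classes. In the shortest class (151 to 1210 bases, 2508 genes), which holds 8 of the 9, the median log2 fold change was -0.16 and 35.6% were lower at an adjusted p of at most 0.05. In the longest class the median was 0.15 and 18.7% were lower. With an offset for transcript length in each library, an alternative added with the values already known, 7 of the 9 were still lower at an adjusted p of at most 0.05, where 26.4% of all tested genes were. S100a14 no longer passed (log2 fold change -0.32, adjusted p = 0.061). With the 2-fold limit, which 4.01% of all tested genes passed downward under the offset, it left 3 genes, S100a4 at -1.77 (adjusted p = 9.9e-05), S100a1 at -1.15 (adjusted p = 1.5e-05) and S100a13 at -1.04 (adjusted p = 6.7e-05), while S100a16 was at -0.86. What underlies the trend with length was not tested.

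Levels of different genes were compared as TPM, that is counts per exon length scaled to the same total in each library. In sg-con S100a4 had the highest level, 2918 ± 303 TPM (SD, n = 3), followed by S100a6 at 2172 ± 381 TPM and S100a11 at 1436 ± 181 TPM. The order of S100a4 and S100a6 was reversed when the mean transcript length was used, at 2133 and 2678 TPM, and that of S100a10 and S100a11 also turned with that length. S100a10 had 821 ± 88.7 TPM, S100a1 had 695 ± 34.3 TPM and S100a13 had 579 ± 20.8 TPM. With the mean transcript length these 3 were at 879, 401 and 302 TPM, and S100a11 and S100a3 were at 750 and 5.10 TPM. By exon length alone, the highest S100a1 library, at 715 TPM, lay just below the lowest S100a10 library, at 743 TPM. S100a16 at 132 ± 11.6 TPM, S100a14 at 20.1 ± 1.15 TPM and S100a3 at 2.56 ± 1.28 TPM closed the order, each apart from its neighbour in every sg-con library.

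In sg-kiaa1522 the level of S100a4 per exon length was 743 ± 151 TPM, below S100a6 at 1358 ± 153 TPM in every library. Its libraries overlapped those of S100a11 at 829 ± 69.2 TPM. With the mean transcript length S100a4, S100a6 and S100a11 were at 525, 1615 and 418 TPM in sg-kiaa1522. The 9 genes summed to 8014, 8725 and 9591 TPM in sg-con and 4478, 3812 and 3772 TPM in sg-kiaa1522, without overlap. Without S100a4 the sum was 5858 ± 699 and 3278 ± 287 TPM (SD, n = 3). Neither sum could overlap, since every gene but the sparse S100a3 had each sg-kiaa1522 library below each sg-con library. The sums thus add nothing to the single genes. S100a4 made up 33.3 ± 3.49% of the summed level in sg-con and 18.4 ± 2.61% in sg-kiaa1522, and S100a6 made up 24.7 ± 2.82% and 33.7 ± 0.734%. These shares are by exon length. With the mean transcript length their order in sg-con turns, as S100a4 was at 2133 and S100a6 at 2678 TPM. The share of S100a13 was 6.62 ± 0.357% and 6.49 ± 0.197% with overlapping groups (exact permutation p = 0.7). That of S100a16 also overlapped (exact permutation p = 0.2), and those of the other genes did not (exact permutation p = 0.1 for each). As parts of 1 sum, shares can rise while levels fall, as for S100a6, whose TPM was lower in sg-kiaa1522.

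**Figure D3:**
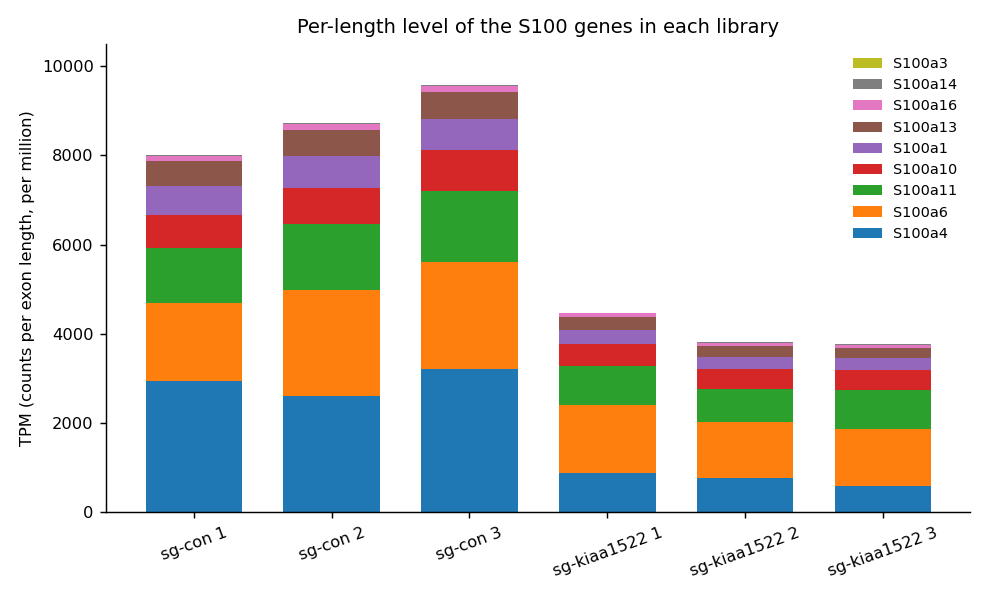
Level of the 9 S100 genes per exon length (TPM, vertical axis from 0) stacked for each of the 6 libraries. The stacks reach 8014 to 9591 TPM in sg-con and 3772 to 4478 TPM in sg-kiaa1522, and the lowest segment, S100a4, takes the largest share in sg-con and a smaller one than S100a6 in sg-kiaa1522.

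Ratios of S100a4 to the other 8 genes show how much further it fell, and since S100a4 was taken for its largest fall, their direction was fixed by that choice and they were not tested. The log2 ratio of S100a4 to S100a6, in CPM, was -0.46, -1.09 and -0.82 in sg-con and -2.03, -1.93 and -2.37 in sg-kiaa1522, a difference of -1.32. Against S100a1, the gene with the next largest fall, the difference was -0.70, and against S100a10 it was -1.15.

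By position, 7 of the genes form a group of 113 kb on chromosome 3 of GRCm38, from S100a1 (chr3:90511034-90514392, minus strand) to S100a6 (chr3:90612882-90624181, plus strand). Between them, in order and all on the plus strand, lie S100a13 (chr3:90514435-90524581), S100a14 (chr3:90526856-90528837), S100a16 (chr3:90537254-90543151), S100a3 (chr3:90560578-90602702) and S100a4 (chr3:90603771-90606045). S100a11 (chr3:93520488-93526287) and S100a10 (chr3:93555080-93564643) lie 2.90 Mb further on, 28.8 kb from each other. The response did not follow the order of the genes, since S100a4, with the largest fall, starts 1.07 kb after the end of S100a3, which did not pass the test. Within 100 kb of the genes, a window set with the values already known, the other tested genes were Ints3, Ilf2, Snapin and Chtop, all on the S100a1 side. Chtop, an mRNA export factor 1.54 kb from S100a1, had a log2 fold change of -0.04 (adjusted p = 0.68). Snapin, a SNARE-associated protein, was lower (log2 fold change -0.76, adjusted p = 0.00062), and neither Ints3 (0.08, adjusted p = 0.39) nor Ilf2 (-0.17, adjusted p just above 0.05) passed. The median log2 fold change of the 482 tested genes of chromosome 3 was -0.12.

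**Figure D4:**
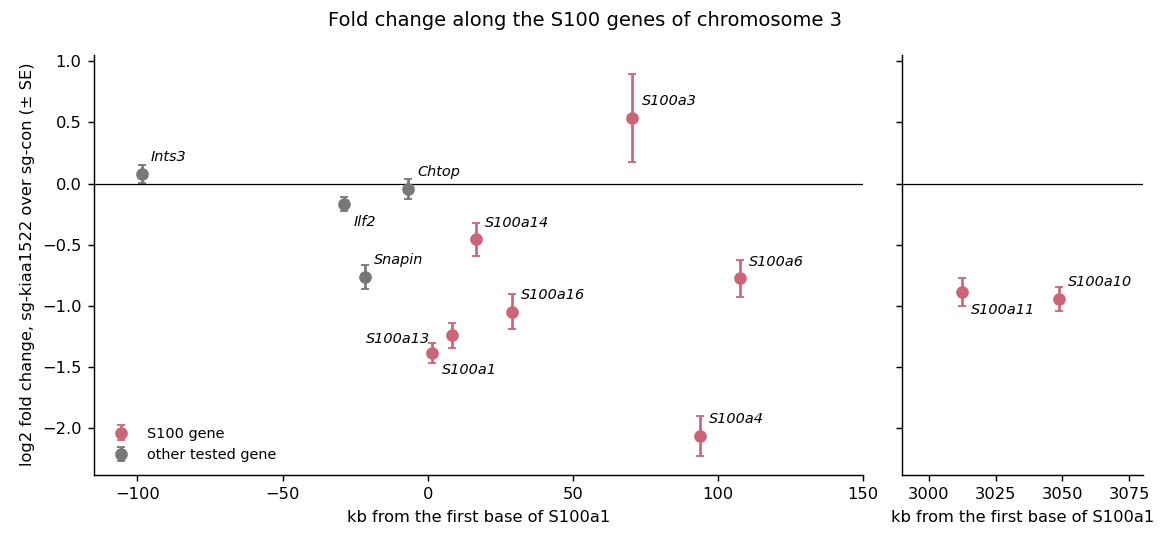
Log2 fold change of sg-kiaa1522 over sg-con (points, with SE as bars) against distance along chromosome 3 in kb from the first base of S100a1, in 2 stretches; red points are S100 genes and grey points the other tested genes within 100 kb. S100a3 at 0.54 lies beside S100a4 at -2.06, and Chtop at -0.04 lies beside S100a1 at -1.38.

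Other S100 genes had few counts in 889 cells and fell below the count limit of the test. S100a7a, a psoriasin-related gene, had 62, 93 and 89 counts in sg-con and 31, 41 and 45 counts in sg-kiaa1522. Its groups did not overlap at 4.64 ± 0.949 and 2.48 ± 0.217 CPM (SD, n = 3). A fit of every gene with at least 1 count gave it a log2 fold change of -0.90 (adjusted p = 0.0057). S100a8 and S100a9, the calprotectin subunits of neutrophils, had 30 to 60 and 32 to 56 counts a library, with overlapping groups. S100a5, which lies in the same region, S100b, S100g and S100z had at most 3 counts in any library.

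Among 24 genes for intracellular binding partners of S100 proteins, 20 were tested, and 8 were lower, 1 was higher and 11 did not pass at an adjusted p of at most 0.05, where 26.3% of all tested genes were lower and 26.3% higher. Their median log2 fold change was -0.19. Anxa2, the partner of S100a10, was 2423, 2513 and 2763 CPM in sg-con and 1182, 1092 and 933 CPM in sg-kiaa1522, with the groups far apart. Its log2 fold change of -1.26 (SE 0.0967, adjusted p = 8.6e-05) was the only one on the list past the 2-fold limit. Log2 ratios of an S100 gene to its partner, in CPM, were compared for the 4 pairs that do not involve S100a4, and the groups did not overlap in any (exact permutation p = 0.1 for each, unadjusted, the smallest possible). The ratio of S100a10 to Anxa2 was higher in sg-kiaa1522 by 0.33. The other 3 were lower, with differences of -0.61 for S100a11 to Anxa1, -1.02 for S100a6 to Cacybp and -0.87 for S100a6 to Anxa11. These differences restate the fold changes of both genes of a pair, and the S100 genes were already known to be lower. The ratios are thus a description, and the trend with transcript length was not removed from them. Anxa1, the partner of S100a11, was 715 ± 35.0 CPM in sg-con and 593 ± 8.05 CPM in sg-kiaa1522. The log2 fold change of -0.27 (adjusted p = 0.0057) did not pass with the length offset (-0.12, adjusted p = 0.25).

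Cacybp, the ubiquitin ligase adaptor named for binding S100a6, rose from 126 ± 2.16 to 150 ± 4.63 CPM (SD, n = 3, log2 fold change 0.26, adjusted p = 0.0066). Anxa11, also a partner of S100a6, had a log2 fold change of 0.11 (adjusted p = 0.19). Myh9, the non-muscle myosin heavy chain that S100a4 binds, was 1602 ± 85.5 CPM in sg-con and 1546 ± 21.3 CPM in sg-kiaa1522 and did not pass (log2 fold change -0.05, adjusted p = 0.47). Ahnak, a large scaffold that binds the S100a10 and annexin A2 complex, was also not called (0.20, adjusted p = 0.19).

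Of 6 genes for surface receptors of secreted S100 proteins, 5 were tested and 3 were lower at an adjusted p of at most 0.05, where 26.3% of all tested genes were. Bsg, or basigin, was 305, 340 and 400 CPM in sg-con and 207, 148 and 141 CPM in sg-kiaa1522, with the groups apart (log2 fold change -1.08, SE 0.164, adjusted p = 0.0013). Tlr4, the receptor that calprotectin activates, was 3.85, 23.8 and 25.2 CPM in sg-con and 40.8, 42.3 and 47.3 CPM in sg-kiaa1522. The groups did not overlap, with sg-con replicate 1 far below all others, and the log2 fold change of 1.3 (SE 0.539) did not pass (adjusted p = 0.077), whereas it passed in the fit of every gene with at least 1 count (1.31, adjusted p = 0.033). Ager, the receptor for advanced glycation end products, had 25 to 53 counts a library and fell below the count limit of the test. Its groups did not overlap, at 1.89 ± 0.671 CPM in sg-con and 3.02 ± 0.235 CPM in sg-kiaa1522 (SD, n = 3). In the fit of every gene with at least 1 count it did not pass (log2 fold change 0.68, adjusted p = 0.067).

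**Figure D5:**
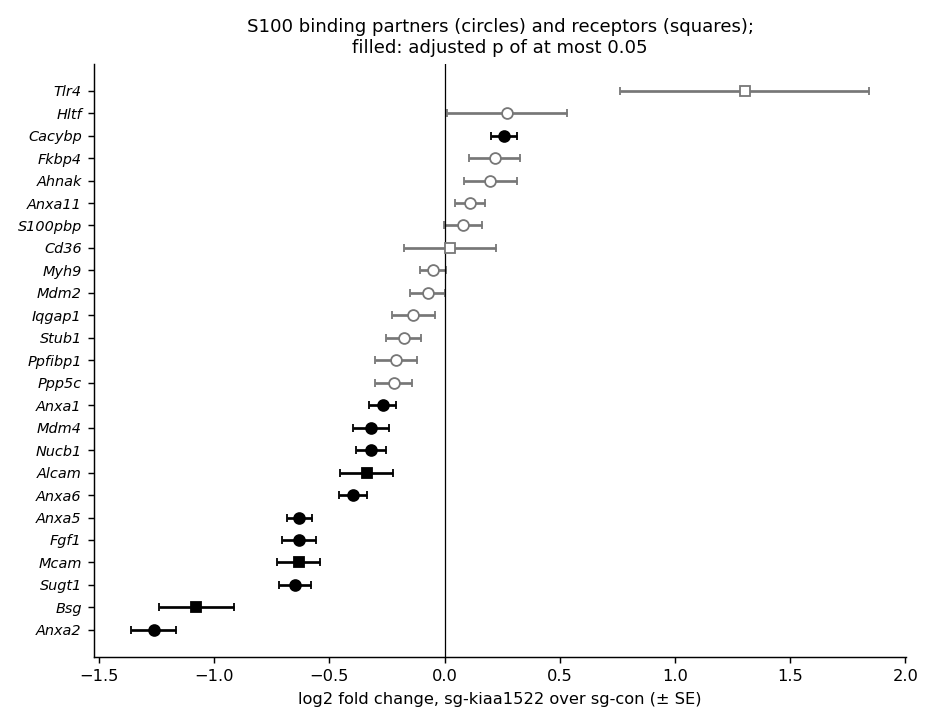
Log2 fold change of sg-kiaa1522 over sg-con (points, with SE as bars) for the 20 tested binding partners (circles) and 5 tested receptors (squares) of S100 proteins, sorted by size; filled symbols have an adjusted p of at most 0.05. Anxa2 and Bsg lie lowest, at -1.26 and -1.08, Cacybp is the single filled symbol above 0, and Tlr4 at 1.3 has the widest bar.

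Among 44 other EF-hand proteins, which share the calcium-binding fold, 37 were tested, and 20 were lower, 5 were higher and 12 did not pass, with a median log2 fold change of -0.24 (26.3% of all tested genes were lower and 26.3% higher). These numbers include Smoc1, Smoc2 and Rcn3, which reached the count limit of the test through 1 group alone and are given as counts. The largest changes were those of secreted matrix proteins of the SPARC family and of a reticulocalbin. Smoc1 had 3, 4 and 2 counts in sg-con and 235, 302 and 298 counts in sg-kiaa1522. Its relative Smoc2 went the other way, with 447, 480 and 452 counts in sg-con and 32, 29 and 22 counts in sg-kiaa1522. Rcn3, a reticulocalbin of the endoplasmic reticulum, had 4, 4 and 3 counts in sg-con and 253, 272 and 354 counts in sg-kiaa1522. Sri, or sorcin, was lower (log2 fold change -1.25, adjusted p = 8.7e-05).

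The 5 tested genes whose profile over the 6 libraries was most like that of S100a4, by Euclidean distance of log2 CPM centred on each gene's mean, were Mturn (0.291), P4ha3 (0.352), Anxa8 (0.407), Ift22 (0.444) and Tyms (0.448). None lies on chromosome 3, which holds only 482 of the 10046 tested genes. Their log2 fold changes ran from -2.16 for Anxa8, another annexin, to -1.88 for P4ha3, a collagen prolyl hydroxylase subunit. Values near that of S100a4 were fixed by the choice, since the distance includes the difference between groups.

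Markers of other cell types were read beside the S100 genes, several of which are also known from stromal and immune cells. The 7 fibroblast markers summed to 425 to 442 CPM in sg-con and 145 to 164 CPM in sg-kiaa1522, almost all of it Col1a2, which was lower (log2 fold change -1.46, adjusted p = 1.5e-05). Col1a1 had 105 to 137 counts in sg-con and 20 to 34 counts in sg-kiaa1522, with Thy1 at 0 counts and Dcn and Lum at no more than 2 counts in every library. The macrophage and neutrophil markers summed to 7.61 to 11.02 CPM in sg-con and 16.1 to 19.3 CPM in sg-kiaa1522. Within that list Cd68 had 19 to 23 counts in sg-con and 122 to 235 counts in sg-kiaa1522, whereas Lyz2 went the other way, with 18 to 63 and 11 to 17 counts. Ptprc had at most 14 counts and Csf1r at most 5, both highest in sg-con replicate 1, S100a8 and S100a9 overlapped between groups, and Adgre1 and Ly6g had 0 counts in every library. Of the 8 epithelial markers, 4 were tested and all 4 were lower at an adjusted p of at most 0.05, where 26.3% of all tested genes were, led by Cdh1 (log2 fold change -1.45, adjusted p = 5.1e-05). Krt18 passed narrowly and not with the length offset (adjusted p = 0.062), and the list summed to 3811 to 4575 CPM in sg-con and 3218 to 3498 CPM in sg-kiaa1522. The 5 lung epithelial markers summed to 43.4 to 97.4 CPM in sg-con and 24.8 to 61.3 CPM in sg-kiaa1522, with overlap. Of that list Sftpb, a surfactant protein, was lower (log2 fold change -0.67, adjusted p = 0.012), and Sftpc and Scgb1a1 were highest in sg-con replicate 1, at 110 and 293 counts. The 4 endothelial markers summed to no more than 1.66 CPM, the 4 lymphocyte markers to no more than 0.517 CPM and the Schwann cell and melanocyte markers to no more than 1.81 CPM in any library. Their part in the S100 values was not tested.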

How the data were processed

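The authors trimmed reads and filtered rRNA with Seqtk, mapped them to GRCm38 with HISAT2 2.0.4 and counted uniquely mapped fragments of genes with StringTie 1.3.0 (study methods and submitters' processing notes). The deposited files, 1 for each library, give raw counts of Ensembl genes without normalization. The annotation release and the use of strand are not given in the sources used here.

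As in the study, only genes above 500 counts in total were tested with edgeR 4.0.16 (R 4.3.3, TMM, quasi-likelihood test, no covariate, Benjamini-Hochberg adjustment). The limits of the study's methods section were used, 0.05 on the adjusted p and 1 on the size of the log2 fold change (a legend in the study gives other limits). The tested genes held 99.5% to 99.6% of the counts. A count of 3 corresponds to 0.162 to 0.247 CPM, a floor that covers counting error only. For single values an exact permutation test, taken as two-sided, was run (smallest p 0.1). The test code was tested on simulated data.

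Positions and exon lengths came from GENCODE M21 (34344 genes matched by identifier). Promoter windows came from RefSeq (GRCm38.p6) and matched 7 of the 9 genes by symbol. Profile distances used log2(CPM + 0.0625).

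The genes named are all 9 members, the other S100 genes, listed partners and receptors past the threshold or set by name, the 4 largest EF-hand changes, neighbours, the 5 nearest profiles and kiaa1522. The members and lists were chosen with earlier results of these data known. Alternatives were the likelihood ratio test, DESeq2 1.42.0, other size factors, other count filters, a replicate block, leaving out each library, no fold limit, another gene length and, added after seeing the data, a transcript-length offset. For that offset, each gene's log2 CPM minus its mean over the 6 libraries was fitted by loess on log2 mean transcript length in each library. It thus also takes out any difference between groups that runs with length.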

Additional observations from a re-analysis of the deposited data

How the results depend on the processing

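Of 126 alternative fits of single S100 genes, 119 kept the direction and the side of an adjusted p of 0.05, 0 turned the direction, and 7 changed the call. Of these 7, 6 were of S100a14 and 1 of S100a3. The count of S100 genes past the 2-fold limit was 4 lower and 0 higher under each other test, size factor and filter, 8 lower with no limit on the fold change, and 3 to 6 lower and 0 to 1 higher with 1 library left out. Over all tested genes 436 were lower and 275 higher; these counts became 812 and 607 with filterByExpr, 941 and 767 with every gene with at least 1 count, 2639 and 2638 with no fold limit, and 409 to 492 and 256 to 354 with 1 library left out, highest without sg-con replicate 1, the fit that gave 6 S100 genes.

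Same-numbered libraries did not deviate together (correlations over genes of -0.21, -0.05 and -0.17, against -0.07 to 0.20 for different numbers). No pairing by number was seen, though so few libraries cannot exclude one. With a replicate block, 4 S100 genes were lower and 0 higher past the limit, 434 and 285 of all tested genes, and S100a14 had an adjusted p of 0.06 and Tlr4 one of 0.047. Alcam, 1 of the 3 lower receptors, had an adjusted p of 0.072 with the block and Krt18 one of 0.13, and of the other EF-hand genes 17 were lower with the block and 17 with the length offset, against 2111 and 2651 of all 10046 tested genes. S100a3 and S100a14 rest on 54 to 251 counts a library.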
